A study of Mus musculus with 238 samples.

Results

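The cerebellum of old male mice was compared after injections of plasma from young mice or of saline, across all genes. The libraries were chosen by their labels, as every cerebellum library of the plasma experiment, which gave 6 of the 238 libraries of the series. There were 3 mice given young mouse plasma (YMP, mice 73, 77 and 81) and 3 given phosphate-buffered saline (PBS, mice 72, 80 and 84). All were C57BL/6JN males of 19 months, injected behind the eye, and each library is the cerebellum of a single mouse. RNA was extracted from homogenised tissue, copied by Smart-Seq2 and sequenced after Nextera XT tagmentation without strand information. The wider study asked where in the brain young plasma or dietary restriction alters gene expression. In its diet experiment, females of the same strain and age were fed freely (AL) or restricted (aDR), and their 9 cerebellum libraries serve below as a second set of levels.

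The cerebellum holds very many small granule neurons, which excite the Purkinje cells, the sole output neurons of its cortex. Deep nuclear neurons, whose axons run through myelinated tracts, carry that output onward. Fibroblasts of the surrounding meninges are not neural cells, and they make collagens, small leucine-rich proteoglycans and solute carriers that are scarce in the tissue beneath. Plasma from young animals is studied as a source of circulating factors that reach an aged brain, and vessels, meninges and choroid plexus are the surfaces that such factors meet first.

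The libraries held 6.63 to 12.99 M counts each, M being mega, and no replicate pair agreed within sampling noise (chi-square per degree of freedom of 2.33 to 17.9 in 6 pairs). The sex labels held in all 15 cerebellum libraries. Xist was at most 1.74 CPM (counts scaled to a library of 1 M) in the 6 males and at least 237 CPM in the 9 females, and Ddx3y was at least 88.8 CPM in the males and at most 1.17 CPM in the females. Cerebellar markers were present throughout. The granule cell receptor subunit Gabra6 was between 472 and 616 CPM, the Purkinje cell genes Calb1 and Pcp2 were between 1536 and 2088 CPM and between 457 and 584 CPM, and 12 genes of the adjoining hindbrain, Hox genes among them, summed to at most 1.21 CPM. Some libraries stood apart. PBS mouse 84 and YMP mouse 81 lay at opposite ends of the first principal component (34.4% of the variance), and PBS mouse 84 had the lowest share of counts on cytosolic ribosomal protein genes, 1.06%, against 1.41% and 1.34% in the other PBS mice and 1.07% to 1.13% in the YMP mice. Mitochondrially encoded genes took 1.64% to 2.25% of counts in YMP and 2.27% to 2.44% in PBS mice.

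Ptgds was lower in every YMP mouse and was the single gene that passed the test. It encodes lipocalin-type prostaglandin D synthase, which makes prostaglandin D2 and is also secreted as a carrier of small lipophilic molecules, and meningeal cells, choroid plexus and oligodendrocytes are known to express it. Its level was 307, 364 and 360 CPM in YMP mice 73, 77 and 81, and 1015, 1101 and 729 CPM in PBS mice 72, 80 and 84. The groups did not overlap, and the lowest PBS value, that of mouse 84, was well above the highest YMP value. YMP mice averaged 344 ± 32.2 CPM and PBS mice 948 ± 195 CPM (SD, n = 3 each), with a log2 change of -1.46, an SE of 0.15 and an edgeR adjusted p of 0.0379. Of 13558 genes tested, this was 0.00738% called. The gene lies on chromosome 2 (chr2:25466709-25470110, GRCm38.p6). Its adjusted p ran from 9.18e-22 with DESeq2 to 0.506 in edgeR without YMP mouse 77. The call was lost with limma-voom, with a robust dispersion and with the spread shared by all 15 cerebellum libraries. Leaving out any single mouse other than PBS mouse 84 lost it too. The log2 change of Ptgds stayed between -1.62 and -1.35 when any single mouse was left out.

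Below the level of single calls, many genes separated the groups by small amounts. An unadjusted p under 0.05 was reached by 687 genes that were higher in YMP mice (5.07% of the tested genes) and by 715 that were lower (5.27%). The 3 YMP values lay wholly above the 3 PBS values for 1210 genes (8.92%) and wholly below them for 1068 (7.88%). By direction alone, 48.6% of the tested genes were higher in YMP mice and 51.4% were lower. The median log2 change of all tested genes was -0.0056. Counts of list members given below are to be read against these shares, and members other than Ptgds did not pass the adjusted test unless a fit is named. Lists and members were chosen with earlier results of these data known, so such counts describe and do not test.

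**Figure D1:**
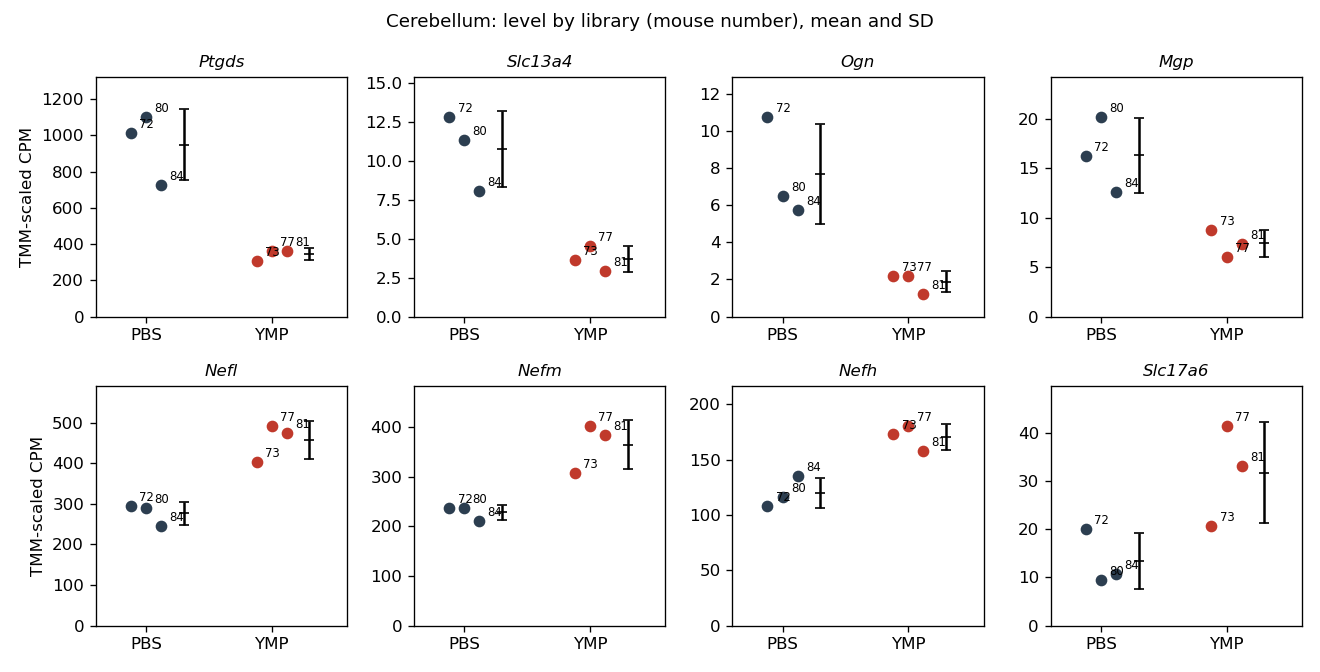
Level of 8 genes in each cerebellum library, in CPM scaled by TMM, for 3 PBS and 3 YMP mice; numbers are mouse numbers, and the cross bar and whiskers are the mean and SD. Ptgds, Slc13a4, Ogn and Mgp lie lower in all YMP mice, and Nefl, Nefm, Nefh and Slc17a6 lie higher.

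The other prostaglandin genes were split in direction. Of 23 genes of prostaglandin synthesis, reception, transport and breakdown, 16 were tested, of which 8 were higher and 8, Ptgds among them, were lower, and the median log2 change was 0.0016. Ptgs1, the constitutive cyclooxygenase that supplies the substrate of the synthase, was 10.2, 14.8 and 11.5 CPM in YMP and 7.52, 9.69 and 7.58 CPM in PBS mice, so its groups did not overlap (log2 change 0.57, SE 0.19, edgeR adjusted p 0.433). Hpgd, which inactivates prostaglandins, and Abcc4, which exports them, had log2 changes of 0.24 and 0.31 with overlapping groups. The prostaglandin D2 receptor genes Ptgdr and Ptgdr2 had too few counts to be tested. Among 12 tested genes that handle retinoids, which the Ptgds protein can carry, 6 were higher and 6 lower. The receptor gene Rarg (log2 change -0.52) was lower without overlap, and the retinaldehyde dehydrogenase gene Aldh1a1 (0.20) was higher without overlap.

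Genes of meningeal fibroblasts lay lower in YMP mice as a group. Of 22 listed genes 21 were tested, 17 were lower, and 13 of these had an unadjusted p under 0.05 and no overlap between groups. Among all tested genes, 7.88% were lower without overlap. The members were chosen with earlier results of these data known, so the 13 of 21 is a description and no independent test. The list's median log2 change was -0.59. Summed over the list, the level was 164, 161 and 144 CPM in YMP mice 73, 77 and 81 and 261, 242 and 219 CPM in PBS mice 72, 80 and 84. In bulk tissue, fewer cells of a type and less RNA per cell cannot be told apart, and how much of the meninges each dissection kept is not given in the labels.

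Of the solute carriers of the leptomeninges, 4 were lower without overlap and Slc13a3 overlapped (log2 change -0.15). Slc47a1, an exporter of organic cations, was at 0, 0 and 0.12 CPM in YMP and 3.61, 6.51 and 2.11 CPM in PBS mice. That is 1 read over the YMP libraries against 112 over the PBS libraries, a ratio of 96.9 with a counting interval of 17.0 to 3863 that covers counting error only (edgeR adjusted p 0.218). Slc13a4, a sulfate transporter, was 3.66, 4.56 and 2.90 CPM against 12.8, 11.4 and 8.06 CPM, with a log2 change of -1.55, an SE of 0.24 and an edgeR adjusted p of 0.301. Slc6a13, a GABA and taurine transporter, was 8.23, 5.29 and 6.04 CPM against 15.6, 12.9 and 11.3 CPM, and Slc22a6, an organic anion transporter, had a log2 change of -1.04, also without overlap.

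Matrix genes split. Ogn, a small leucine-rich proteoglycan, was 2.19, 2.21 and 1.21 CPM in YMP and 10.7, 6.51 and 5.75 CPM in PBS mice (log2 change -2.05, SE 0.33, edgeR adjusted p 0.301). Fmod, of the same protein family, averaged 12.1 ± 2.89 CPM against 24.7 ± 4.05 CPM (SD, n = 3 each). Mgp, an inhibitor of calcification, averaged 7.39 ± 1.37 CPM against 16.3 ± 3.79 CPM (SD, n = 3 each). The collagen I genes Col1a1 and Col1a2, the proteoglycan gene Bgn and Islr were lower without overlap as well, with log2 changes of -0.59, -0.51, -0.56 and -1.12. The 4 listed genes that were not lower were named after their values were seen, apart from the defining fibroblast marker Dcn. Dcn was 21.1, 26.5 and 20.3 CPM in YMP and 23.9, 20.3 and 20.1 CPM in PBS mice (log2 change 0.06), and Lum (0.17), Foxc1 (0.11) and Col3a1 (0.02) overlapped too. The signs of Dcn, Lum and Col3a1 turned under some of the fits given in the closing part.

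Secreted and enzymatic members completed the group. Igf2, a growth factor made by meninges and choroid plexus, was 6.49, 5.44 and 4.71 CPM in YMP and 18.5, 9.84 and 11.6 CPM in PBS mice (log2 change -1.27, SE 0.25). Its exons overlap those of Igf2os on the other strand, so unstranded reads there could be either gene's. Aldh1a2, which makes retinoic acid in meninges, was 4.48, 3.09 and 2.90 CPM against 8.06, 7.72 and 7.67 CPM (log2 change -1.14, SE 0.21). In the edgeR fit without PBS mouse 84, 6 members of this list were called, all lower: Slc47a1, Slc13a4, Ogn, Mgp, Fmod and Slc6a13, with adjusted p between 0.0244 and 0.0453. No other fit that left out a single mouse called any of them.

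Stretches before the start that the RefSeq promoter table uses are printed for 3 of the lower genes because Ptgds was the gene called and Slc13a4 and Ogn lay lower with it. Each is on GRCm38.p6 and runs 5′ to 3′ toward that start. The stretch of Ptgds lies inside the whole span of the gene given above, so the table's start for it is not the outermost one. Bases that GENCODE places in an exon of the gene were left out. Capitals mark matches, on either strand, to TATAAA (the TATA box), GGGCGG (the GC box), CACGTG (an E-box) or GTAAACA (a forkhead core).
Ptgds, chr2:25469843-25469999, minus strand: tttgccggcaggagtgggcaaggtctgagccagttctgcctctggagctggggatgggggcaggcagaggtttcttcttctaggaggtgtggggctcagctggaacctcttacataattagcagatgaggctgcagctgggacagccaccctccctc
Slc13a4, chr6:35308132-35308376, minus strand: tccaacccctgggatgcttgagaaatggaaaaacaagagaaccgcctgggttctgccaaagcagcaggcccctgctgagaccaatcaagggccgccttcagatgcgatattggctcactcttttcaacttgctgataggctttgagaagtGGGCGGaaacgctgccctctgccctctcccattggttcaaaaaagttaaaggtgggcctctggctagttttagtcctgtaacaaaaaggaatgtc
Ogn, chr13:49607765-49608014, plus strand: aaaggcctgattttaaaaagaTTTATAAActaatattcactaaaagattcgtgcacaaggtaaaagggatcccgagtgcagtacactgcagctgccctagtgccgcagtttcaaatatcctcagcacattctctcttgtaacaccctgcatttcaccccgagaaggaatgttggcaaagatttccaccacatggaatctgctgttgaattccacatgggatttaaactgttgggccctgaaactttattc
In the 250 bases before the start, Ptgds had 0 matches, Slc13a4 had 1 GC box match 100 bases before the start, and Ogn had 2 overlapping TATA box matches, on opposite strands, 227 and 229 bases before it. Over 32851 promoters of the same length, 12.4% held the TATA box letters, 32.7% the GC box, 6.02% the E-box and 3.17% the forkhead core. The letters describe these windows and show no binding.

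Neighbouring barrier and blood genes were measured beside the fibroblast list. Only 5 of 16 choroid plexus genes had enough counts to be tested, and Ttr, its most abundant secretory gene, was not among them. Kcnj13, a potassium channel of that epithelium, was 1.01, 1.03 and 0.97 CPM against 2.84, 2.88 and 1.82 CPM (log2 change -1.31, SE 0.30), while Enpp2, which oligodendrocytes also express, had a log2 change of 0.38. All 8 tested border macrophage and lymphocyte genes were lower (median -0.24), of which F13a1 (-0.70) did not overlap. Blood cell genes were lower for all 10 tested members (median -1.54), yet their sum was 70.3, 12.6 and 8.45 CPM in YMP and 18.7, 153 and 114 CPM in PBS mice, so the groups overlapped, and the median ran from -3.38 without YMP mouse 73 to -0.74 without PBS mouse 80. Hba-a1, a haemoglobin chain, was 14.4, 1.47 and 1.09 CPM against 4.37, 30.9 and 28.6 CPM. The fibroblast sum, given above, was lower in every YMP mouse than in any PBS mouse. The part of dissection or blood content in the lower meningeal genes was not tested.

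**Figure D2:**
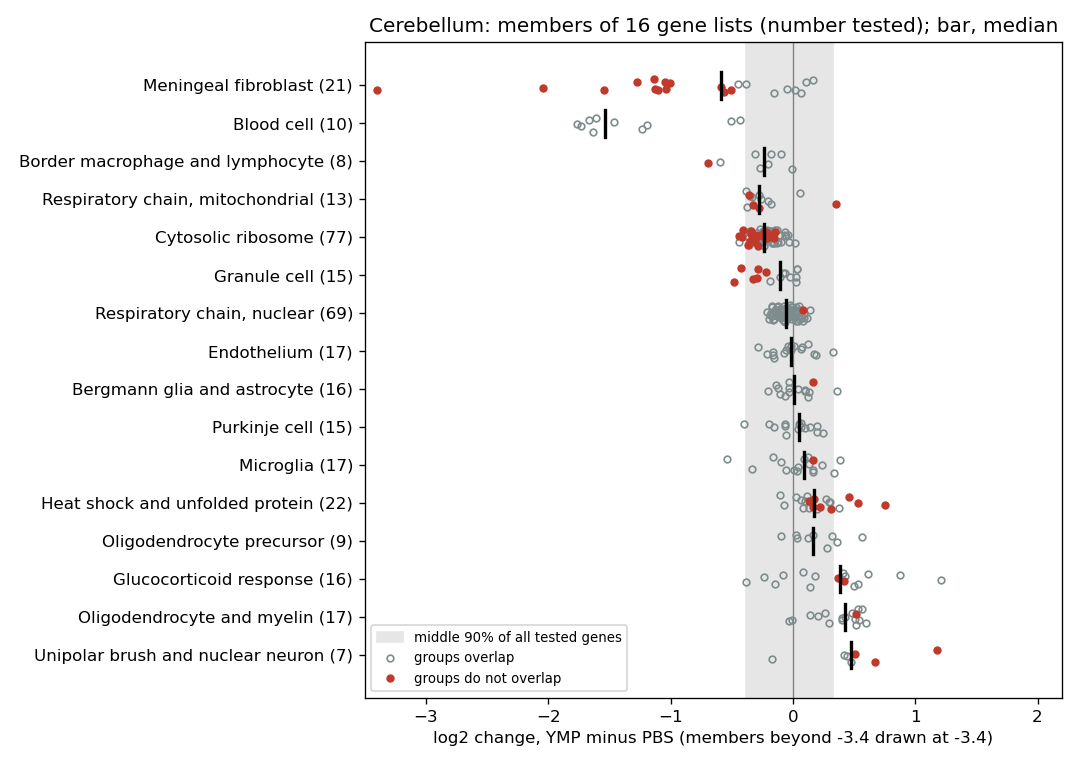
Log2 change (YMP minus PBS) of each tested member of 16 gene lists, with the number tested in brackets; filled points are genes whose 3 YMP and 3 PBS values do not overlap, vertical bars are list medians, and the grey band holds the middle 90% of all tested genes. The meningeal fibroblast median lies at -0.59 and the oligodendrocyte and myelin median at 0.42.

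Neurofilament genes were higher in all YMP mice. Neurofilaments are the intermediate filaments of axons, built from a light, a medium and a heavy chain, and they set axon calibre in large myelinated neurons. The light chain gene Nefl was 403, 491 and 474 CPM in YMP mice 73, 77 and 81 and 295, 290 and 244 CPM in PBS mice 72, 80 and 84. It averaged 456 ± 46.9 CPM in YMP and 276 ± 28.0 CPM in PBS mice (SD, n = 3 each), with a log2 change of 0.72, an SE of 0.10 and an edgeR adjusted p of 0.218. The medium chain gene Nefm was 308, 402 and 384 CPM against 238, 237 and 210 CPM (log2 change 0.67, SE 0.11, edgeR adjusted p 0.301). The heavy chain gene Nefh was 173, 180 and 157 CPM against 108, 116 and 135 CPM (log2 change 0.51, SE 0.096, edgeR adjusted p 0.362). None of the 3 chains overlapped between groups. DESeq2 called all 3 (adjusted p 9.37e-08, 6.20e-06 and 0.0112), and so did the edgeR fit without PBS mouse 84. No other fit that left out a single mouse called any of the chains. GENCODE exons of Nefl and Nefm overlap on opposite strands, because a long Nefm transcript of that annotation reaches into Nefl, so reads in the shared part could not be assigned by strand. The RefSeq spans of both genes lie apart (chr14:68083863-68089095 and chr14:68119545-68125004, GRCm38.p6).

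Kif5a and Slc17a6 were also higher in all YMP mice. Kif5a, the kinesin heavy chain that carries neurofilaments along axons, was 506, 506 and 475 CPM in YMP and 408, 404 and 403 CPM in PBS mice (log2 change 0.29, SE 0.063), and DESeq2 called it (adjusted p 0.0289). Slc17a6, the vesicular glutamate transporter of deep nuclear and other hindbrain neurons, was 20.7, 41.5 and 33.1 CPM against 20.1, 9.54 and 10.7 CPM (log2 change 1.18, SE 0.31, edgeR adjusted p 0.429). The lowest YMP and the highest PBS value of Slc17a6 nearly touched. Of 7 tested genes of unipolar brush and nuclear neurons, 6 were higher, 3 without overlap (median 0.47). Eomes, a marker of unipolar brush cells, had a log2 change of 0.47 with overlap. Calb2 was the 1 lower member, with means of 431 CPM in YMP and 486 CPM in PBS mice (log2 change -0.17, with overlap). The summed level of the list was 903, 1202 and 1248 CPM in YMP mice 73, 77 and 81, and mouse 73 lay inside the PBS range of 850.1 to 987 CPM. The list holds Nefm and Nefh, so it is not separate from the neurofilament result.

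Myelin genes were higher in 2 of the 3 YMP mice. Of 17 tested oligodendrocyte and myelin genes, 15 were higher and 10 had an unadjusted p under 0.05, but Ugt8a alone, which makes the myelin lipid galactosylceramide, did not overlap. Mbp, myelin basic protein, was 4129, 6764 and 7437 CPM in YMP and 4655, 3675 and 3752 CPM in PBS mice (log2 change 0.60, SE 0.19, edgeR adjusted p 0.429). YMP mouse 73 thus lay inside the PBS range, while mice 77 and 81 lay above it. The median of the list was 0.42, and it ran from 0.28 without YMP mouse 81 to 0.63 without YMP mouse 73. Trf, the iron carrier transferrin, had the same order of mice, with 1350.4, 1926 and 2207 CPM against 1449, 1163 and 1102 CPM. Among 9 tested precursor genes 8 were higher (median 0.17), and Enpp6, of newly forming oligodendrocytes, was the single member with an unadjusted p under 0.05 (log2 change 0.57). Nefl in YMP mouse 73 was also the lowest of the YMP values, and the part of white matter content in the neurofilament values was not tested.

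Granule cell genes leaned the other way. Of 15 tested, 11 were lower, and 6 were lower without overlap and with an unadjusted p under 0.05 (median -0.10). Fat2, a protocadherin of parallel fibres, was 108, 97.9 and 104 CPM in YMP and 133, 131 and 170 CPM in PBS mice (log2 change -0.49, SE 0.11), and DESeq2 called it (adjusted p 0.0342). Cbln1, which granule cells secrete to hold their synapses onto Purkinje cells, was 155, 156 and 155 CPM against 180, 194 and 195 CPM (log2 change -0.29, SE 0.066). Neurod2, a neuronal transcription factor, was 103, 96.7 and 97.9 CPM against 128, 116 and 121 CPM (log2 change -0.29, SE 0.071). Gabra6 overlapped (log2 change -0.084, with the opposite sign without PBS mouse 84), and the summed list was 4890 to 5223 CPM in YMP and 5167 to 5423 CPM in PBS mice.

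Other cell classes had medians near that of all genes. Purkinje cell genes had a median log2 change of 0.053, inhibitory interneuron genes 0.030, Bergmann glia and astrocyte genes 0.0080, microglia genes 0.093, endothelial genes -0.017 and pericyte and smooth muscle genes 0.017, and each of these signs turned without at least 1 of the 6 mice. Pcp4, a calmodulin regulator of Purkinje cells, was 520, 415 and 408 CPM against 604, 698 and 472 CPM and overlapped. Gfap, the astrocyte filament, was 443, 713 and 708 CPM against 590, 411 and 445 CPM (log2 change 0.36), also with overlap. Csf1r, the receptor that keeps microglia alive, had a log2 change of 0.34 and Cx3cr1, the fractalkine receptor, one of 0.12, both overlapping. Vtn, a pericyte matrix protein, was lower without overlap (log2 change -0.28, SE 0.090), and Gja1, the astrocyte gap junction gene, was higher without overlap (0.16, SE 0.072).

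Cytosolic ribosomal protein genes were lower almost throughout, by small amounts. Of 77 tested, 76 were lower (median -0.23), 29 of them with an unadjusted p under 0.05 and 22 without overlap. Rps24, of the small subunit, was 130, 126 and 111 CPM in YMP and 172, 168 and 151 CPM in PBS mice (log2 change -0.42, SE 0.087), and DESeq2 called it (adjusted p 0.0247). Rpl30 (-0.44) and Rps15 (-0.37) did not overlap either. PBS mouse 84 did not follow the other controls in many of these genes. Rps29 was 195, 183 and 183 CPM in YMP mice but 298, 262 and 162 CPM in PBS mice 72, 80 and 84, so that the last lay below all treated mice.

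The number of called genes depended on that mouse. Without PBS mouse 84 edgeR called 112 genes, 17 higher (0.125% of 13577 tested) and 95 lower (0.7%). Of the 95, 42 belonged to the ribosomal list, whose median went from -0.23 to -0.37. The 10 with the smallest p were Ptgds, Slc47a1, Rps29, Rpl35a, Slc13a4, Ccn3, Nefh, Rps27, Rpl36 and Nefl. Of the 112, 108 had the same direction with all 6 mice, 61 had an unadjusted p under 0.05 there, and 42 did not overlap. Leaving out any other single mouse gave 0 or 1 called gene. The 1 gene without YMP mouse 73 was Sgk1, a kinase gene induced by glucocorticoids and abundant in oligodendrocytes, at 81.6, 276 and 293 CPM in YMP and 102, 82.1 and 94.8 CPM in PBS mice. YMP mouse 73 lay below every PBS mouse for it, and its log2 change was 1.21 with all mice (edgeR adjusted p 0.429) and 1.61 without mouse 73 (edgeR adjusted p 0.00402).

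Mitochondrially encoded subunits of the respiratory chain were mostly lower. Of 13 mitochondrial genes 11 were lower (median -0.28), 6 with an unadjusted p under 0.05. mt-Nd1, of complex I, was 3096, 2670 and 2433 CPM against 3419, 3666 and 3404 CPM (log2 change -0.36, SE 0.095), and mt-Nd5 did not overlap either (-0.33). mt-Nd4l, named after its values were seen, was higher without overlap (log2 change 0.35). Of 69 nuclear genes 49 were lower, 0 with an unadjusted p under 0.05 in edgeR and 0 lower without overlap, and the median was -0.058, which became -0.21 without PBS mouse 84 and 0.017 without PBS mouse 80. The mitochondrial median was -0.33 without PBS mouse 84. The difference between both lists was not tested.

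**Figure D3:**
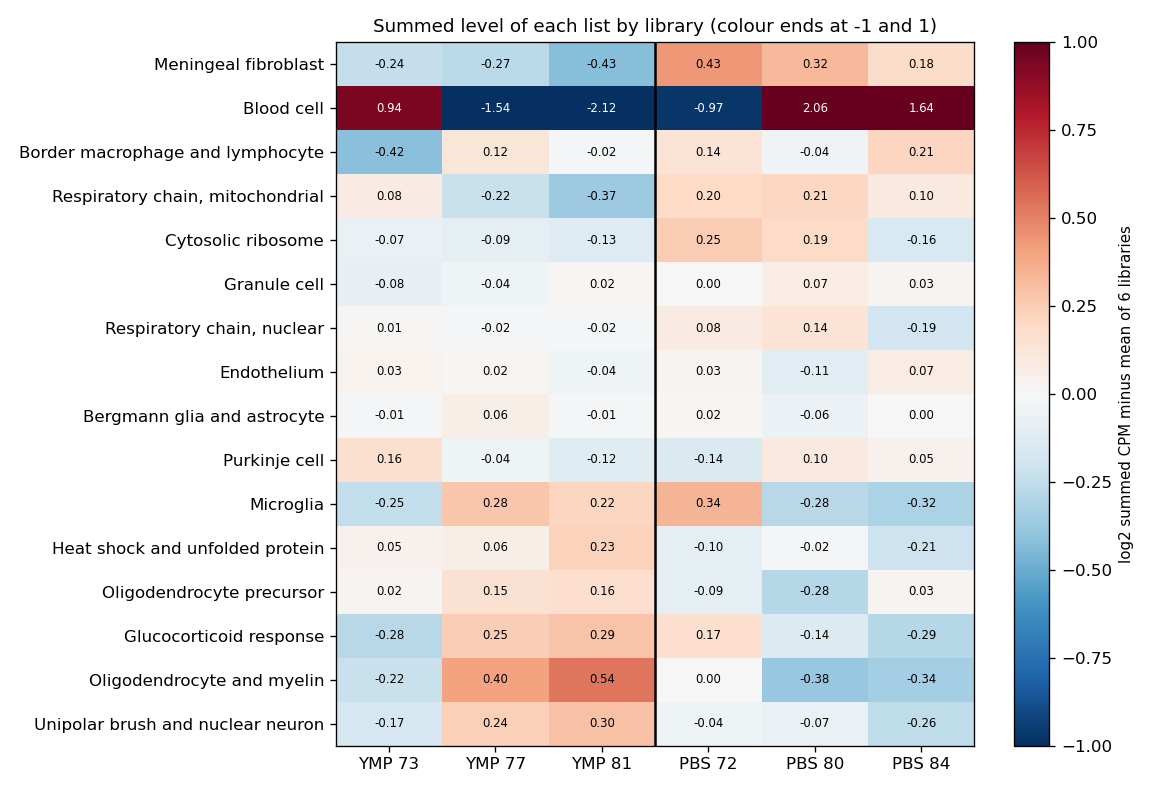
Summed CPM of 16 gene lists in each cerebellum library, as log2 minus the mean of the 6 libraries. The meningeal sum is below 0 in the 3 YMP and above 0 in the 3 PBS mice, the myelin sum is 0.40 and 0.54 in YMP mice 77 and 81 but -0.22 in mouse 73, and the ribosomal sum of PBS mouse 84 is -0.16.

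Chaperone genes were slightly higher. Of 22 tested heat shock and unfolded protein genes, 20 were higher, 7 with an unadjusted p under 0.05 and 8 without overlap (median 0.17). Hsph1, a nucleotide exchange factor of Hsp70, was 129, 136 and 170 CPM in YMP and 95.1, 107 and 99.1 CPM in PBS mice (log2 change 0.53, SE 0.11), and DESeq2 called it (adjusted p 0.0112). Hspa8, the constitutive Hsp70, was 2296, 2335 and 2693 CPM against 1918, 2098 and 1884 CPM (log2 change 0.31, SE 0.085), and its co-chaperone Dnajb1 had a log2 change of 0.46 without overlap.

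Hormone and activity responses were uneven. Of 16 glucocorticoid response genes 12 were higher and 4 had an unadjusted p under 0.05 (median 0.39), of which Errfi1, a brake on epidermal growth factor receptors, and Tsc22d3, an anti-inflammatory target, did not overlap (log2 changes 0.41 and 0.36). The sum of this list overlapped between groups. It was 1205, 1735 and 1787 CPM in YMP mice 73, 77 and 81 and 1640, 1330 and 1200 CPM in PBS mice 72, 80 and 84. Of 16 tested immediate early genes 14 were higher (median 0.18), and Dusp1 alone had an unadjusted p under 0.05 (0.47), with a median of 0.011 without PBS mouse 80. Interferon response genes were lower in 18 of 21 (median -0.34), with 0 under an unadjusted p of 0.05 in edgeR, and the median became 0.37 without PBS mouse 72. That mouse had 116 CPM of Ifit3, a gene induced by interferon, where the other 5 mice had 24.1 to 40.7 CPM. Of 16 tested complement and MHC class I genes, 6 were higher and 10 lower (median -0.069). Among them Serping1 alone, the C1 inhibitor of the complement cascade, did not overlap. It was 26.8, 28.1 and 28.4 CPM in YMP against 46.5, 40.0 and 30.8 CPM in PBS mice (log2 change -0.50).

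Clock and lipid genes had medians close to 0. Of 17 clock genes, Per3, Clock, Bhlhe41 and Dbp were lower without overlap (log2 changes -0.27, -0.21, -0.24 and -0.23), and the list median was 0.031. The hour of sampling is not among the labels. Of 24 cholesterol synthesis genes 12 were higher and 12 lower (median 0.00029), with Sqle (0.25) and Msmo1 (0.20) higher without overlap. Glutamate and GABA receptor genes had a median of -0.066 and no member with an unadjusted p under 0.05 in edgeR. Genes of blood-borne ageing factors and their targets, 10 tested, had a median of -0.028, also with 0 members under that p in edgeR.

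Beyond the lists, the genes with the smallest p and no overlap were as follows. Among the higher genes, Wwc1, a scaffold of the Hippo pathway, was 40.0, 41.6 and 37.0 CPM in YMP and 28.2, 27.9 and 24.7 CPM in PBS mice (log2 change 0.55, SE 0.096). Pcsk6, a protease that activates secreted precursors, was 74.2, 117 and 102 CPM against 49.0, 65.9 and 39.9 CPM (log2 change 0.93, SE 0.20). Foxk2, a forkhead transcription factor, had a log2 change of 0.89, Arhgap24, a Rac GTPase-activating protein gene, one of 0.89, Mex3c, an RNA-binding ubiquitin ligase, one of 0.72 and Slc45a3 one of 1.15. Cbln4, a relative of Cbln1, was at 2.29, 2.94 and 2.30 CPM against 1.15, 0.45 and 0.57 CPM (log2 change 1.65). Spock3, a proteoglycan of the testican family, had a log2 change of 0.35 and Rnf157, a ubiquitin ligase, one of 0.43.

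Among the lower genes, Ccn3, a matricellular protein, was 0.37, 0 and 0 CPM in YMP and 4.30, 6.21 and 1.44 CPM in PBS mice, or 4 against 112 reads, a ratio of 24.2 (counting interval 9.21 to 90.5). Spry2, a feedback inhibitor of receptor tyrosine kinases, was 38.0, 28.2 and 34.9 CPM against 51.6, 62.3 and 54.9 CPM (log2 change -0.72, SE 0.12). Galnt15, an enzyme of mucin-type glycosylation, was 20.8, 21.6 and 20.7 CPM against 31.7, 28.6 and 33.4 CPM (log2 change -0.58, SE 0.099). Rictor, the defining subunit of mTOR complex 2, was 57.1, 49.7 and 52.3 CPM against 68.8, 70.0 and 72.5 CPM (log2 change -0.41, SE 0.080). Slc39a1, a zinc importer, had a log2 change of -0.87, the glutathione transferase gene Gstm2 one of -1.73, and the proline transporter gene Slc6a20a one of -0.81, the last with exons that overlap Ccr9 on the other strand.

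Whether these differences were larger in cerebellum than elsewhere was tested within mice. Each mouse's log2 CPM in cerebellum was set against its mean over 9 other brain regions, choroid plexus left out, and limma called 6 of 13558 genes (0.0443%). Nefl and Mob3b were relatively higher in cerebellum, and Slc47a1, Ccn3, Neurod2 and Penk were relatively lower. For Nefl, the log2 change was 0.71 in cerebellum and 0.020 in the other regions, a difference of 0.68 (SE 0.094, limma adjusted p 0.0429). Slc47a1 had log2 changes of -3.93 and -0.11 on this scale (difference -3.82, SE 0.46, limma adjusted p 0.0365). For Neurod2 the values were -0.31 and 0.85, and for Penk, an opioid peptide precursor gene, 0.043 and 0.62. In both genes, the larger values were those of the other regions. Mob3b had log2 changes of opposite sign, 0.32 in cerebellum and -0.36 in the other regions. Ptgds differed by -1.14 (SE 0.17), with -1.46 in cerebellum and -0.32 elsewhere, and missed the threshold (limma adjusted p 0.0564). As a mean over the 9 other regions, the meningeal list had a median log2 change of -0.47, but the regions were uneven. Its sum in the subventricular zone was 83.1, 72.9 and 87.7 CPM in YMP mice 73, 77 and 81. PBS mice 72, 80 and 84 had 867, 231 and 227 CPM there. In medulla it was also lower without overlap, at 220, 195 and 142 CPM against 463, 232 and 294 CPM. The same held in anterior hippocampus, at 207, 150 and 271 CPM against 353, 323 and 293 CPM. In entorhinal cortex the groups overlapped, at 584, 587 and 930 CPM against 652, 647 and 552 CPM. In motor cortex they overlapped too, with PBS mouse 72 at 625 CPM and mice 80 and 84 at 197 and 181 CPM. Caudate putamen, hypothalamus, olfactory bulb and thalamus also had overlapping groups. Differences of the list's members were not called apart from Slc47a1. The 6 calls went to 0 without YMP mouse 77, PBS mouse 80 or PBS mouse 84, to 2 without YMP mouse 81, to 12 without PBS mouse 72 and to 213 without YMP mouse 73. They also went to 0 in limma-voom over all libraries with mouse as a replicate block (1210 at an unadjusted p under 0.05), in edgeR with no block (788) and in limma over genes with a mean of at least 5 CPM (1648).

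The females of the diet experiment gave a second view of the same genes. Scaled over all 15 cerebellum libraries, Ptgds was 307 to 366 CPM in YMP males, 431 to 817 CPM in 4 freely fed and 417 to 1321 CPM in 5 restricted females. All 9 female libraries were thus above the 3 YMP libraries. The value of 1321 CPM was that of 1 restricted female, and the next highest female was at 824 CPM. PBS mice 72 and 80, at 1011 and 1094 CPM, lay above the other 8 females, and PBS mouse 84, at 737 CPM, lay among them. The meningeal sum was 144 to 164 CPM in YMP males and 163 to 354 CPM in the females, which just overlapped. Nefl was 403 to 493 CPM in YMP males and 247 to 294 CPM in PBS males, and freely fed females alone spanned 260 to 649 CPM. Sex and experiment cannot be told apart in this setting. A test of the plasma change minus the diet change called 0 of 13683 genes in edgeR (0%), with 1874 at an unadjusted p under 0.05, and 158 in DESeq2. In edgeR the count was 43 without YMP mouse 73, 46 without aDR mouse 62 and 79 without AL mouse 69. Ptgds had a plasma change minus diet change of -1.96 (edgeR adjusted p 0.0833), its diet change alone being 0.49 (edgeR adjusted p 0.478). The median of the myelin list was 0.42 for plasma and -0.51 for diet, and the difference between these medians was not tested.

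**Figure D4:**
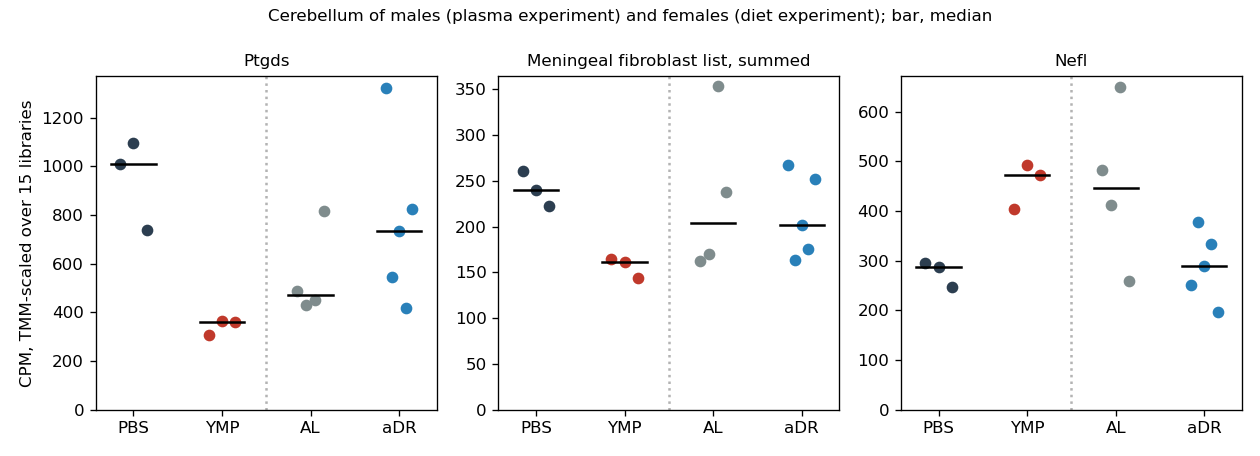
CPM (TMM-scaled over 15 libraries) of Ptgds, of the summed meningeal fibroblast list and of Nefl in every cerebellum library, for PBS and YMP males and for AL and aDR females; bars are group medians. The 3 YMP points of Ptgds, at 307 to 366 CPM, lie below all other libraries.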

How the data were processed

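Bulk RNA was measured in 6 cerebellum libraries, and 54 libraries of 9 other regions of the same mice and 9 cerebellum libraries of the diet experiment were used for comparison. The deposited values are whole-number counts per gene, made by the authors, with 21076 gene rows. The submitters' processing notes name Trim Galore 0.3.7, STAR 2.5.3a, DESeq2 and GRCm38, with no roles given. The annotation and the counting program are not given in the sources used here. Counts were unstranded per the labels, and reads carry no molecular identifiers, so intervals cover counting error only.

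Here the counts were tested with edgeR 4.0.16 (quasi-likelihood, filterByExpr at 10 counts and a total of 15, TMM) in R 4.3.3, over YMP and PBS cerebellum alone, and a gene was called at a Benjamini-Hochberg adjusted p under 0.05. CPM use TMM-scaled library sizes. Differences from other regions were tested with limma 3.58.1 on log2 CPM values (prior count 2) computed from the deposited counts, and DESeq2 1.42.0 was an alternative, as were RLE factors, voom, other filters, a robust dispersion, a spread shared by all cerebellum libraries and leaving out each mouse. P-values measure the spread between 3 mice a group. Libraries that share a mouse number in the labels come from 1 animal, so the number pairs regions and never treatments. The consensus correlation between regions of a mouse was 0.104.

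The genes named are every called gene, the 15 with the smallest p in each direction with a mean of at least 1 CPM and no overlap, the 3 members with the smallest p of each list with a few defining markers, the 10 with the smallest p of any fit without 1 library that called 10 or more, and those called in the difference tests. A few genes that this rule takes in are not reported here. Some list members were added after their values were seen (Slc6a13, Col1a1, Col1a2, Slc22a6, Islr, Bgn, Lum, Foxc1, Col3a1, Abcc4, Eomes, Calb2 and Dbp). The members and lists were chosen with earlier results of these data known. Overlaps of genes come from GENCODE vM21, and positions and promoters from RefSeq, both on GRCm38. For 1 gene of each of 3 lists the table has no row (Mx1, Ddit3 and Atp5o).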

Additional observations from a re-analysis of the deposited data

Results flagged for a closer look

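A change that differed between cerebellum and the other 9 regions of the same mice was called for 6 genes in limma. The difference in log2 change, cerebellum minus the other regions, was -3.82 for Slc47a1, -1.16 for Neurod2, -3.94 for Ccn3, -0.58 for Penk, 0.68 for Nefl and 0.68 for Mob3b. In Ccn3 and Slc47a1 the YMP cerebellum libraries held 4 and 1 reads in all. A single library stood apart from its group: a freely fed female had 817 CPM of Ptgds, where the other 3 lay between 431 and 489 CPM. Of 10 groups of values examined for such a library, 1 was flagged, and chance flags about 1 in 20.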

How the results depend on the processing

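The count of 1 called gene in cerebellum was 16 with DESeq2 (9 higher, 7 lower) and 6 with no filter on low counts (2 higher, 4 lower). It was 0 with limma-voom, with a robust dispersion and with the spread shared by 15 libraries, at 1310, 1380 and 1792 genes with an unadjusted p under 0.05. It was 1 with RLE factors or a mean of at least 5 CPM. Leaving out 1 mouse gave 0 to 112 genes, 0 to 17 of them higher and 0 to 95 lower, and the 112 came without PBS mouse 84. No paired analysis of YMP against PBS was possible because treated and control mice carry different numbers. For the difference between regions, pairing by mouse called 6 genes, and both the fit with no replicate block and the voom fit with mouse as replicate block called 0 (788 and 1210 at an unadjusted p under 0.05). It was 0 at a mean of at least 5 CPM, 9 with choroid plexus added, and 0 to 213 when 1 mouse was left out. Plasma minus diet was 0, 158 with DESeq2, and 0 to 79 when 1 mouse was left out. Of 105 single genes followed, 7 turned sign under some setting, none of them called. Without 1 mouse each, their log2 changes ran from -0.054 to 0.16 (Dcn), -0.041 to 0.40 (Lum), -0.12 to 0.21 (Col3a1, and -0.00298 with voom), -0.18 to 0.017 (Gabra6), -0.046 to 0.11 (Calb1), -0.13 to 0.056 (Pcp2) and -1.26 to 0.14 (Ifit3). The cause of these moves was not tested. With 3 mice a group and 6.63 to 12.99 M counts, genes below about 1 CPM rest on few reads.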
